A study of Mus musculus with 8 samples.

Results

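Integrins and claudins were examined as 57 genes, 27 integrins and 30 claudins, on microarrays of photoreceptor cells isolated from the mouse retina at postnatal day 8. The members were the genes whose RefSeq symbol is Itga or Itgb with a number or a final letter, or Cldn with a number, with Cldn1 and Cldn19 left out by the definition. They were represented by 74 of the 56605 probes, among 22911 genes with a symbol, and 27 of them, 16 integrins and 11 claudins, were bright enough to be tested.

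The study compared mice that lack Lpcat1, a lysophospholipid acyltransferase, with heterozygous mice, in order to see how the photoreceptor transcriptome differs between them. In the labels the groups are Lpcat1 HZ and Lpcat1 KO, 4 arrays each, both of strain C57BL/6 and both at P8. The deletion is present in every cell of the body, and the line had been bred to C57BL/6J to remove the rd8 allele of Crb1. The mice used were not homozygous for rd8, and whether some carried 1 copy is not given in the sources used here. The Lpcat1 heterozygotes also carry the Lpcat1 deletion on 1 chromosome, so a wild type was not part of this comparison. Cells were released from the retina with trypsin and those bearing CD73, a surface protein of young photoreceptors, were collected with magnetic beads, so that other cells may remain among them. Whether an array stands for a single animal or a pool is not given in the sources used here, and p-values measure only the spread between these arrays.

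Integrins are pairs of an alpha and a beta chain that hold a cell to the extracellular matrix or to another cell, and each alpha chain largely decides which ligand is bound. Claudins are the strand proteins of tight junctions. Some seal the space between cells and others form pores that let small ions or water through. In the eye, tight junctions with claudins close the retinal pigment epithelium (RPE), the endothelium of retinal vessels is sealed mainly by Cldn5, and the alphav beta5 integrin of the RPE takes part in the uptake of shed outer segments.

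Signals are given as normalized log2 signal, the log2 intensity minus the array's 75th percentile, and each difference is KO minus HZ. Levels of different probes are not compared. All 8 arrays lay on the same slide, KO in slide row 1 and HZ in slide row 2, so that slide row and genotype cannot be told apart. On each array 59.5% to 64.6% of the probes had a signal well above background. The number of arrays limits the precision. Non-uniform spots numbered 458 on HZ replicate 4 and 2 to 25 elsewhere. Lpcat1 itself did not separate the labels (-0.037, standard error 0.11, with a limma adjusted p of 0.931), and whether its single probe lies inside the deleted part is not known here, so genotypes are given as labelled. Rod markers, which define the labelled cell type, were well above background on all 8 arrays for 15 of 15 genes.

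Among the integrins, 13 genes were well above background on all 8 arrays, 3 on 4 to 7 arrays, 7 on 1 to 3 arrays and 4 on 0. Among the claudins the corresponding numbers were 5, 6, 7 and 12, so that most claudins could not be measured in these cells. The integrins left untested were Itga2, Itga5, Itga8, Itga9, Itgad, Itgal, Itgb2l, Itgb3, Itgb6, Itgb7 and Itgb8. The claudins left untested were Cldn2, Cldn3, Cldn4, Cldn6, Cldn8, Cldn11, Cldn13, Cldn16, Cldn17, Cldn22, Cldn24, the genes Cldn34a, Cldn34b1, Cldn34b2, Cldn34b3, Cldn34b4, Cldn34c4 and Cldn34d, and the pseudogene Cldn34-ps. For these 30 genes a level below detection is a bound, not an absence. The untested set includes Itgb8, the partner of Itgav in activation of TGF-beta, which was well above background on 1 HZ and 1 KO array, with signals of -5.99, -4.89, -6.02 and -4.96 on the HZ arrays and -4.57, -6.04, -6.20 and -7.07 on the KO arrays. It also includes Cldn3, a sealing claudin of epithelia, which was well above background on 0 arrays, with signals between -7.55 and -5.73 on the HZ arrays and between -7.56 and -6.19 on the KO arrays.

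**Figure D1:**
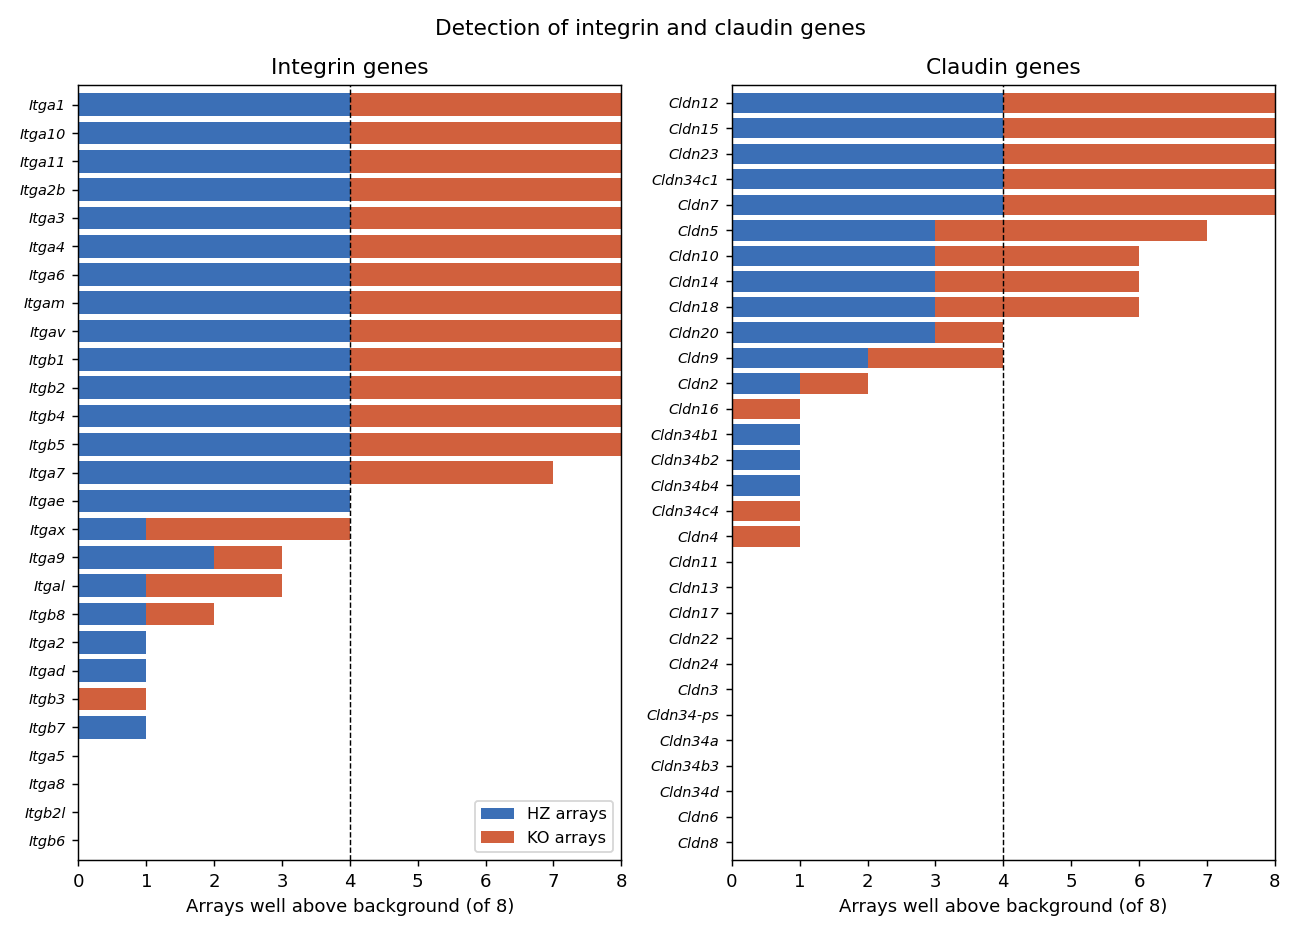
Number of arrays, of 8, on which each of the 57 genes was well above background, with the HZ arrays in blue and the KO arrays in orange, and the dashed line at the 4 arrays needed for a test. The bars show 16 integrins and 11 claudins at or past the line, and Itgae reaching it through the HZ arrays alone.

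Of the 27 tested members, 3 were lower on the KO arrays at an unadjusted limma p under 0.05 and 0 were higher. The 3 were Itga7, Itgav and Itgae, a laminin receptor chain, an RGD receptor chain and an integrin of intraepithelial lymphocytes. They are 11.1% of the tested members, where 9.3% of the 14848 tested genes passed in either direction, 3.5% as lower and 5.81% as higher. The same 3 genes had every KO array below every HZ array, as had 2.52% of all tested genes. Every KO array was above every HZ array for 0 members and for 5.48% of all tested genes. The count of lower members includes Itgae, which passed the detection filter through the HZ arrays only, and this favours a lower sign. In either direction the share of the members lay near that of all genes, so no excess is read from the count.

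With the looser thresholds in the study's methods, which are a fold change above 1.5 with an adjusted p below 0.5, 1 member was lower, Itga7, and 0 were higher, where 1.13% of tested genes were lower and 0.33% higher. With the stricter thresholds, a fold change above 1.2 with an adjusted p below 0.05, 0 members and 0 genes passed, with limma and for the members also with the methods' t-test. The median log2 difference was -0.074 over the integrins, with 9 below 0 and 7 above, and turned to 0.0066 without HZ replicate 3. It was -0.10 over the claudins, with 8 below 0 and 3 above, and turned to 0.0082 with normexp background correction. Over all tested genes the median was 0.029, and 43.2% were below 0. Of the members 51.9% differed by less than 1.2-fold, against 79% of all tested genes, and the median standard error was 0.23 for the members and 0.12 for all genes.

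With the replicate number as a block, 2 members, Cldn5 and Itgax, passed the looser thresholds as higher, where 0.956% of genes did, and Itga7 passed as lower, where 2.95% did. The number of members at an unadjusted p under 0.05 was then 6, with Cldn5, Cldn9 and Itga11 besides Itga7, Itgav and Itgae, where 12.5% of genes passed.

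**Figure D2:**
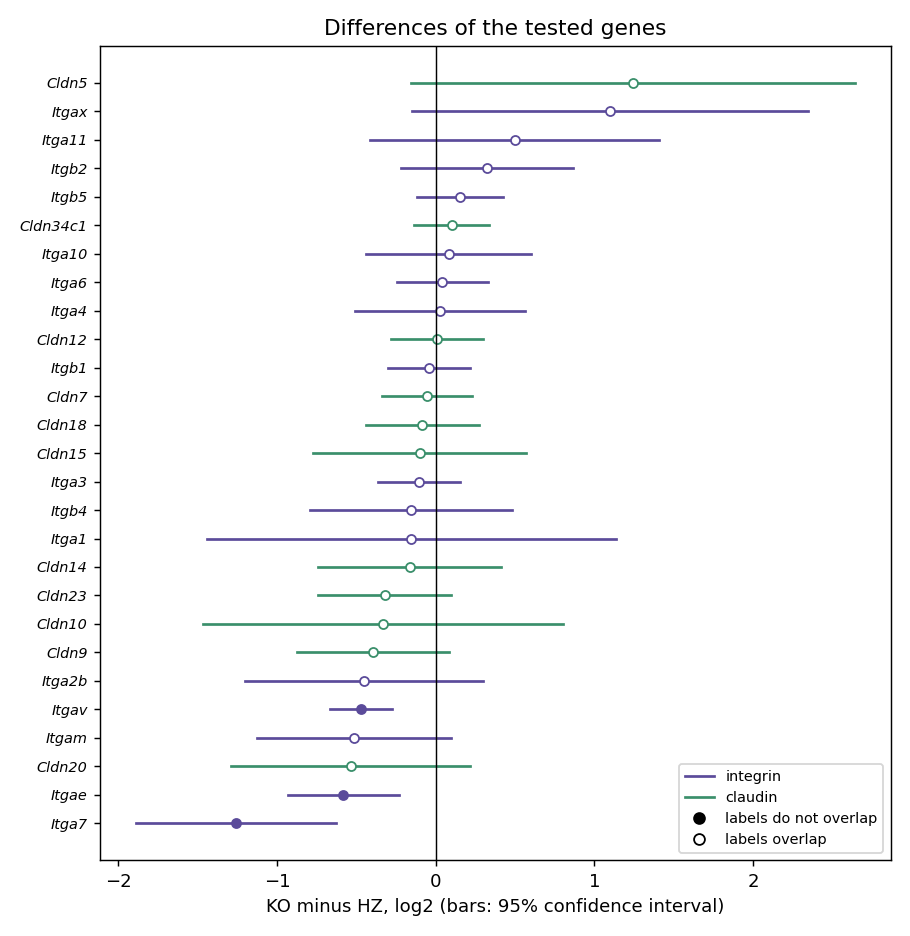
Log2 difference, KO minus HZ, of the 27 tested members in order of size, with 95% confidence intervals from limma (n = 4 arrays a group). Filled points mark genes whose labels do not overlap, which are Itga7, Itgae and Itgav, and Itgae rests on signal that was not well above background on the KO arrays.

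Among the laminin-binding alpha chains, Itga7 fell on the KO arrays while Itga6 and Itga3 differed by less than their standard errors. Itga7, the alpha7 chain, is known as the main laminin receptor of muscle. The signal of Itga7 was -3.15, -3.55, -3.78 and -3.53 on the HZ arrays and -4.81, -4.69, -4.09 and -5.45 on the KO arrays. The highest KO array lay below the lowest HZ array. The difference was -1.26 (standard error 0.27, 95% interval -1.89 to -0.63, limma adjusted p = 0.362), and it was lower on the KO array in 4 of 4 pairs of equally numbered arrays. Itga7 was well above background on 4 HZ and 3 KO arrays, and a dimmer Itga7 probe on 0 arrays. Over the alternatives the adjusted p lay between 0.237 and 0.733. The call was lost with normexp background correction, where the difference was -0.39 and 1.07% of genes were called lower, without a filter on dim probes, where the adjusted p was 0.714, and when HZ replicate 1 or 3 or any single KO array was left out, although without single arrays the difference stayed between -1.48 and -1.03.

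Itga6, whose alpha6 chain is the laminin receptor of many epithelia and neural progenitors, had signals of 2.72, 2.38, 2.59 and 2.72 on the HZ arrays and of 2.72, 2.38, 2.66 and 2.81 on the KO arrays. The groups overlapped, and the difference was 0.042 (standard error 0.12, 95% interval -0.24 to 0.33, limma adjusted p = 0.93). A second Itga6 probe gave -0.024. Itga3, the alpha3 chain of epithelial laminin receptors, differed by -0.11 (standard error 0.11), and a second Itga3 probe gave -0.054 (standard error 0.15).

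The RGD-binding alpha chains that could be tested were Itgav and Itga2b, and Itgav was the member with the smallest limma p. Itgav encodes the alphav chain, which pairs with several beta chains and binds vitronectin and the latent form of TGF-beta. Its signal was 0.0069, 0.044, 0.062 and -0.15 on the HZ arrays and -0.49, -0.37, -0.51 and -0.54 on the KO arrays. The groups did not overlap, and within each group the arrays lay close together. The difference was -0.47 (standard error 0.084, 95% interval -0.66 to -0.28, limma adjusted p = 0.328), a KO signal of 0.722 times that of HZ, which is short of the 1.5-fold threshold. Within pairs it was -0.50, -0.42, -0.57 and -0.39. Of the 18 alternatives, all kept it between -0.52 and -0.44, with adjusted p between 0.116 and 0.733.

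The promoter of Itgav is shown because Itgav is the separated gene with an entry in the RefSeq promoter table, where Itga7 and Itgae were not found. The 250 bases before the start, on the plus strand at chr2:83724147-83724396 of GRCm38.p6, are given 5′ to 3′ with an ETS core in capitals.
Itgav: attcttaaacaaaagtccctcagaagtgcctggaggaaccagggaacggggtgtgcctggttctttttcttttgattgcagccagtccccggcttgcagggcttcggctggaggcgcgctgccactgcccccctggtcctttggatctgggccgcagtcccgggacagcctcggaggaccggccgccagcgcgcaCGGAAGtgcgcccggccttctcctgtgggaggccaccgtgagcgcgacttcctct

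The window has a GC content of 64.4%, against a median of 52.4% over the 32851 promoters of the table. On either strand, the letters CGGAAG, an ETS core added after the sequence was seen, are in 13.6% of all promoter windows. The letters CATGTG and CACGTG of E-boxes, TAATCC of the photoreceptor factors OTX2 and CRX, GGGCGG of the GC box and TATAAA of the TATA box were not in the Itgav window, and 12.3%, 6.02%, 6.25%, 32.7% and 12.4% of all windows hold them. Over the 51 windows of the 42 members with an entry, CATGTG was in 13.7%, CACGTG in 0%, TAATCC in 5.88%, GGGCGG in 33.3%, TATAAA in 3.92% and CGGAAG in 13.7%. These are matches of letters, not measured sites.

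Itga2b, the alphaIIb chain of the platelet fibrinogen receptor, had signals of -5.20, -4.93, -4.56 and -3.81 on the HZ arrays and -5.24, -5.07, -5.51 and -4.49 on the KO arrays. The groups overlapped, although the KO array was the lower in 4 of 4 pairs, and the difference was -0.45 (standard error 0.33, limma adjusted p = 0.727). Of the platelet markers reported here, Gp1bb could be tested, and Pf4, Ppbp, Gp9, Gp1ba and Gp5 were well above background on 0 arrays. With normexp background correction the Itga2b difference was -0.0015.

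Among the collagen-binding alpha chains, Itga11, a collagen receptor of fibroblasts, differed most. Its signals were -5.55, -4.01, -3.88 and -4.90 on the HZ arrays and -4.68, -3.66, -3.83 and -4.17 on the KO arrays. The groups overlapped, but the KO array was the higher in 4 of 4 pairs, by 0.87, 0.35, 0.042 and 0.72. The difference was 0.50 (standard error 0.39, limma adjusted p = 0.746), and with the replicate number as a block its standard error was 0.16 and its adjusted p 0.387. Itga1 differed by -0.15 (standard error 0.56), with HZ replicate 3 at -1.67 and the other HZ arrays between -4.57 and -3.67, and Itga10 by 0.081 (standard error 0.23). The sign of Itga1 turned without HZ replicate 3, to 0.42.

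Itga4, the alpha4 chain of the receptor for VCAM1 and fibronectin, had signals of -3.05, -2.80, -1.92 and -2.87 on the HZ arrays and of -2.82, -2.57, -2.56 and -2.58 on the KO arrays. The difference was 0.029 (standard error 0.23, 95% interval -0.51 to 0.56, limma adjusted p = 0.977), with the groups overlapping.

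The leukocyte alpha chains that were tested went different ways. Itgae, the alphaE chain that binds E-cadherin on epithelia, had signals of -5.14, -5.28, -5.14 and -4.67 on the HZ arrays and -5.57, -5.55, -5.53 and -5.90 on the KO arrays. It was well above background on 4 HZ arrays and not well above background on any KO array, so the size of its change is not known. Itgae entered the tested set through the HZ arrays alone, which favours a lower sign. Where a KO array below the dimmest detected probe was given that probe's signal, the KO mean was 1.40-fold lower. That value has no interval and is not a floor for the change. The fitted difference was -0.58 (95% interval -0.93 to -0.23, limma adjusted p = 0.434). Over the alternatives the adjusted p lay between 0.276 and 0.836, and with normexp background correction the fitted difference moved from -0.58 to -0.085.

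Itgax, which encodes CD11c of dendritic cells and activated microglia, had signals of -7.03, -6.05, -6.95 and -4.54 on the HZ arrays and -4.51, -4.80, -5.29 and -5.58 on the KO arrays. It was well above background on 1 HZ and 3 KO arrays, and HZ replicate 4 lay among the KO arrays. The difference was 1.1 (standard error 0.54, 95% interval -0.15 to 2.35, limma adjusted p = 0.642). With the replicate number as a block the adjusted p was 0.493 and Itgax passed the looser thresholds, as it did without HZ replicate 2 or 4. With normexp background correction the difference was 0.15.

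Itgam, which encodes CD11b of microglia and other myeloid cells, had signals of 1.71, 1.01, 1.22 and 1.49 on the HZ arrays and 1.02, 0.73, 1.41 and 0.20 on the KO arrays. The groups overlapped, with the lowest value on KO replicate 4. The difference was -0.52 (standard error 0.26, 95% interval -1.12 to 0.093, limma adjusted p = 0.65), and Itgam passed the looser thresholds without HZ replicate 2. This probe is annotated to 1 of the Itgam transcripts, and the probe for another Itgam transcript was well above background on 0 arrays, so the Itgam value rests on a single probe. Itgb2, the beta chain that Itgam and Itgax share, had signals of -5.25, -5.31, -4.85 and -4.82 on the HZ arrays and -4.55, -5.19, -5.02 and -4.18 on the KO arrays. The groups overlapped, and the difference was 0.32 (standard error 0.24, 95% interval -0.22 to 0.86, limma adjusted p = 0.728), with Itgb2 higher on the KO array in 3 of 4 pairs and Itgam lower in 3 of 4.

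Microglia and leukocyte markers had differences in the direction of Itgax and Itgb2 and opposite to Itgam. Of 15 such markers 14 were tested and all 14 had a difference above 0, with a median of 0.75, while their summed linear signal relative to the 75th percentile was 3.35 to 7.65 on the HZ arrays and 5.38 to 9.45 on the KO arrays. Cx3cr1 (0.93), Ctss (0.92), C1qa (0.91) and Aif1 (0.90) differed most, and Ptprc, a defining marker of leukocytes, was well above background on 3 arrays. The 1 marker past the looser thresholds was Tmem119 (0.76, limma adjusted p = 0.409), well above background on 1 HZ and 3 KO arrays. Between equally numbered arrays the score of the list, the mean deviation of its genes, differed by 1.59, 0.88, 0.63 and -0.24. Whether these cells account for the leukocyte integrins was not tested. In bulk RNA of this kind, fewer cells of a type and less RNA per cell cannot be told apart.

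The beta chains Itgb1 and Itgb5, partners of some of the alpha chains above, did not follow Itga7 and Itgav. Itgb1, the beta1 chain shared by most matrix receptors, had signals of 1.49, 1.82, 1.70 and 1.56 on the HZ arrays and of 1.51, 1.79, 1.65 and 1.45 on the KO arrays. The groups overlapped almost completely, and the difference was -0.042 (standard error 0.11, 95% interval -0.30 to 0.22, limma adjusted p = 0.923), while a second Itgb1 probe gave 0.14 (standard error 0.10). Itgb5, the partner of alphav on the RPE, had signals of 1.68, 1.87, 1.60 and 1.43 on the HZ arrays and 1.75, 2.00, 1.75 and 1.70 on the KO arrays. It was the higher on the KO array in 4 of 4 pairs, by 0.069, 0.13, 0.15 and 0.26, but the groups overlapped and the difference of 0.15 (standard error 0.12, limma adjusted p = 0.74) lay near its standard error. Itgb4, the beta4 chain of hemidesmosomes, differed by -0.15 (standard error 0.28).

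**Figure D3:**
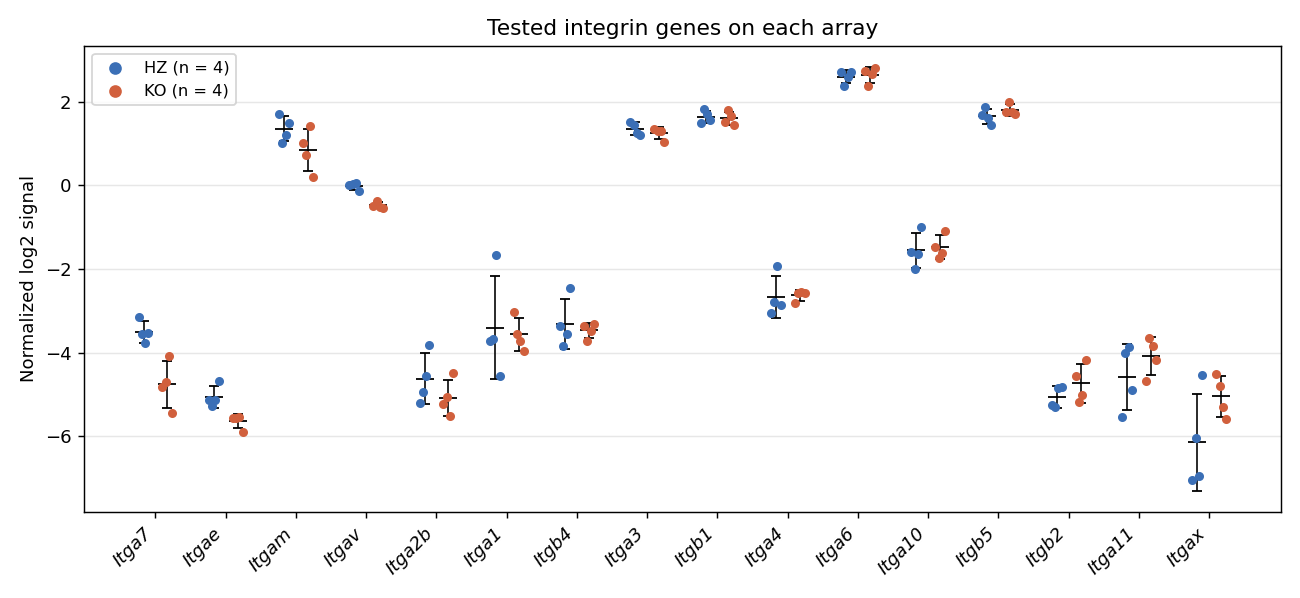
Normalized log2 signal of the 16 tested integrins on each array, with the mean and SD of each group (n = 4), in order of the difference. Itga7, Itgae and Itgav show no overlap between HZ (blue) and KO (orange), and Itgax on HZ replicate 4 lies among the KO arrays. Heights of different genes are not comparable.

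Among the claudins, 0 of 11 passed an unadjusted limma p under 0.05, where 9.3% of all tested genes did. Of the sealing claudins, Cldn5, the main claudin of endothelial tight junctions, differed most. Its signals were -4.86, -4.62, -6.22 and -3.66 on the HZ arrays and -4.90, -3.18, -3.57 and -2.75 on the KO arrays. The groups overlapped, with 3 of the KO arrays above every HZ array and KO replicate 1 below the highest 3 of HZ. The difference was 1.24 (standard error 0.61, 95% interval -0.16 to 2.64, limma adjusted p = 0.64), the largest in size among the claudins. With the replicate number as a block the standard error was 0.44 and the adjusted p 0.406, past the looser thresholds. With normexp background correction the difference was 0.60 and also past them (adjusted p = 0.423), where 0.384% of genes were.

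Endothelial markers differed in the direction of Cldn5 in part. Of 11 such markers 7 were tested, 5 with a difference above 0 and 2 below, with a median of 0.43. Robo4 was well above background on 0 HZ and 4 KO arrays. It thus entered the tested set through the KO arrays alone, which favours a higher sign. Robo4 is counted among the 5 and in the score below, and the score was not computed without it. Vwf differed by 1.41 (standard error 0.65) and Kdr by -0.79 (standard error 0.62). The defining markers Cdh5, Tek, Tie1 and Emcn were well above background on 0 arrays and Pecam1 differed by -0.0054. The summed linear signal of the list overlapped, 0.985 to 3.27 on the HZ arrays and 1.14 to 2.14 on the KO arrays, while the score of the list, the mean deviation of its genes, was higher on the KO array in 4 of 4 pairs, by 0.62, 0.64, 0.76 and 0.26. Red blood cell markers were higher too. All 3 that could be tested, Hba-a1, Hba-a2 and Hbb-bt, had an unadjusted limma p under 0.05, with a median of 1.58, and their score was higher in 4 of 4 pairs, by 1.90, 1.67, 0.35 and 2.46, while Alas2 was well above background on 0 arrays. Their summed linear signal overlapped, 0.202 to 0.583 on the HZ arrays and 0.316 to 2.13 on the KO arrays. Hbb-bt was well above background on 2 HZ and 4 KO arrays. The part of either list in the Cldn5 values was not tested.

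The other sealing claudins differed little. Cldn14, a claudin of the inner ear and kidney, differed by -0.16 (standard error 0.25), with the KO array lower in 4 of 4 pairs, and Cldn18 by -0.084 (standard error 0.15). Among the channel-forming claudins, Cldn10, a paracellular ion channel of kidney and secretory epithelia, had signals of -5.80, -5.10, -3.44 and -4.27 on the HZ arrays and -5.65, -4.74, -5.08 and -4.47 on the KO arrays. The groups overlapped, and the difference of -0.33 (standard error 0.49, limma adjusted p = 0.856) was 0.072 without HZ replicate 3. Cldn15, a sodium channel of the intestine, differed by -0.10 (standard error 0.29).

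Of the remaining claudins, Cldn12, an unusual member of the family without the usual PDZ-binding end, had signals of 2.32, 2.47, 2.27 and 2.17 on the HZ arrays and of 2.39, 2.42, 2.00 and 2.46 on the KO arrays. The groups overlapped and the difference was 0.010 (standard error 0.13, 95% interval -0.28 to 0.30, limma adjusted p = 0.986). Cldn7, which epithelial cells carry on their lateral membranes, differed by -0.053 (standard error 0.12, 95% interval -0.34 to 0.23). Cldn34c1, of the Cldn34 group of similar genes on chromosome X, differed by 0.10 (standard error 0.10) on 1 probe and by 0.12 on another, and whether these probes tell the copies apart was not tested.

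Cldn20, Cldn9 and Cldn23 had negative differences with overlapping groups. The Cldn20 difference was -0.54 (standard error 0.33), with 3 HZ arrays and 1 KO array well above background. Cldn9 had signals of -5.05, -5.58, -5.31 and -5.02 on the HZ arrays and -5.41, -6.17, -5.34 and -5.61 on the KO arrays. It differed by -0.39 (standard error 0.21, limma adjusted p = 0.66). Cldn9 was lower on the KO array in 4 of 4 pairs, and blocking on the replicate number gave an adjusted p of 0.384 at a size below 1.5-fold, but its sign turned with normexp background correction, to 0.044. Cldn23 differed by -0.32 (standard error 0.18).

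**Figure D4:**
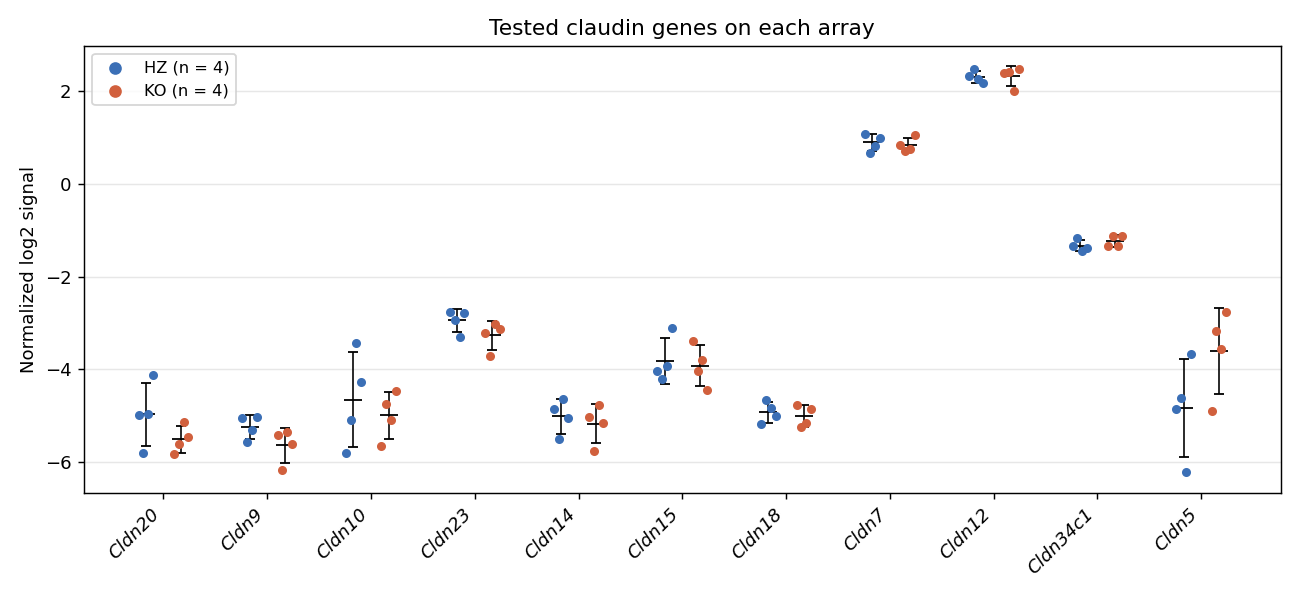
Normalized log2 signal of the 11 tested claudins on each array, with the mean and SD of each group (n = 4), in order of the difference. The HZ (blue) and KO (orange) arrays overlap for every claudin shown, and Cldn5 has the widest gap between the means. Heights of different genes are not comparable.

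When equally numbered arrays were set against each other, 6 of 27 tested members were lower on the KO array in 4 of 4 pairs and 3 were higher. The lower ones were Itga7, Itgav, Itgae, Itga2b, Cldn9 and Cldn14, and the higher ones Itga6, Itga11 and Itgb5. Itgae is counted here although it entered the tested set through the HZ arrays alone, which favours a lower sign. Over all genes with values in every pair, 9.91% were lower and 18.9% higher in 4 of 4 pairs. These shares are a description without a test.

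The genes that act with the members differed little as groups. Of 42 genes of the integrin adhesome, the talins, kindlins and kinases at the cytoplasmic tails, 38 were tested, 16 with a difference below 0 and 22 above, with a median of 0.015, and 0 passed the looser thresholds. The largest differences were those of Apbb1ip (0.74, standard error 0.49), Lims1 (-0.51, standard error 0.34), Parva (-0.47, standard error 0.26) and Fermt2 (-0.45, standard error 0.38), and their labels overlapped. The 1 adhesome gene at an unadjusted limma p under 0.05 was Itgb1bp1, which binds the tail of beta1, which differed by 0.26 (standard error 0.090, limma adjusted p = 0.533) with every KO array above every HZ array.

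Of 33 tight junction partners with a probe, 29 were tested, 12 below 0 and 17 above, with a median of 0.079. Ocln, the strand protein occludin, was well above background on 0 arrays. F11r, the junctional adhesion molecule JAM-A, was the 1 partner past the looser thresholds. It rose by 0.81 on the KO arrays (standard error 0.18, limma adjusted p = 0.362), from -4.29 ± 0.35 (SD, n = 4) to -3.48 ± 0.16 (SD, n = 4), and its labels did not overlap. The next largest differences were those of Cgnl1 (0.47, standard error 0.22), Marveld3 (-0.43, standard error 0.26) and Marveld2 (0.39, standard error 0.55).

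RPE markers were lower on the KO arrays. Of 16 RPE markers 15 were tested, and all 15 had a difference below 0, with a median of -1.67 and 11 past the looser thresholds. Their summed linear signal was 16.1 to 43.4 on the HZ arrays and 8.20 to 15.3 on the KO arrays. Rpe65 (-2.38), Mlana (-2.26), Krt8 (-2.20) and Cdh3 (-2.09) differed most. Within pairs the RPE score, the mean deviation of the markers, was -1.49, -0.86, -1.18 and -2.22, against -1.66, -1.15, -0.31 and -1.92 for Itga7 and -0.69, -0.28, 0.20 and -1.29 for Itgam. The pair numbered 4 had the largest drop in all of these, and also in Itgae (-1.23) and in the rod score. It also held the largest drop of Cldn15 (-1.34), Cldn20 (-1.33), Itgax (-1.04) and Itgb4 (-0.85). The microglia and leukocyte score was negative in that pair alone (-0.24). In Itga1 (-2.05) and Cldn10 (-1.64) the largest drop was in the pair numbered 3. HZ replicate 4 was the array with 458 non-uniform spots, and whether this bears on the drops was not tested. Itga7 had its smallest drop in the pair numbered 3, where the RPE score was -1.18. The drops of Itgav were of near equal size in every pair. Other scores were also lower on the KO array in 4 of 4 pairs, by smaller amounts, with -0.059, -0.034, -0.079 and -0.28 for 15 rod markers and -0.059, -0.15, -0.32 and -0.31 for 9 Muller glia markers. The markers did not all go 1 way, with 13 rod markers below 0 and 2 above. Of the Muller glia markers 6 were below 0 and 3 above, and Rlbp1 (-0.97) and Clu (-0.56) differed most. The part of these cells in the lower integrins was not tested.

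In the order of genes along chromosome 10 in the RefSeq table, Itga7 is preceded at a distance of 1 gene by an RPE marker. The order is Rdh5, Bloc1s1 and Itga7, a neighbourhood picked after the values were seen. It was picked from up to 2 protein-coding neighbours on either side of each tested member. Rdh5, a retinol dehydrogenase of the RPE, differed by -1.68 (standard error 0.26, limma adjusted p = 0.279), while Bloc1s1, which lies between, differed by 0.077 (standard error 0.12). Another neighbour with a drop of near that size was Abcc4, beside Cldn10 (-1.66, standard error 0.44, limma adjusted p = 0.434). The other tested neighbours differed less.

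**Figure D5:**
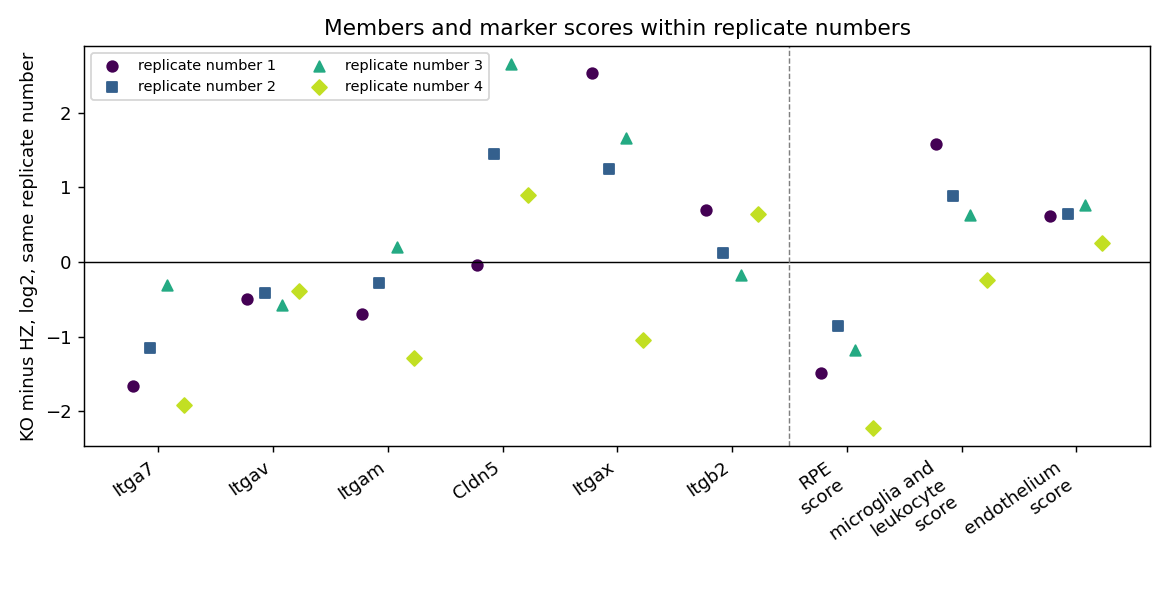
Log2 difference, KO minus HZ, between arrays with the same replicate number, for 6 integrins and claudins and, right of the dashed line, for the scores of RPE, microglia and leukocyte, and endothelium markers. The endothelium score includes Robo4, which entered the tested set through the KO arrays alone. The Itgav points lie between -0.57 and -0.39, while those of Itga7 spread from -1.92 to -0.31 and those of the RPE score from -2.22 to -0.86.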

How the data were processed

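The authors deposited the background-subtracted signal intensity of each spot, as written by Agilent Feature Extraction 10.7.1.1 per the labels, and log2 values after a 75 percentile shift, in which each probe is centred on its median over the 8 arrays. The analysis used the intensity. Its log2 minus each array's 75th percentile over 59305 non-control spots was taken, spots marked as outliers were dropped, and repeated spots of a probe were averaged. A minimum of 4 arrays well above background and of 3 values a group was required, and probes were tested two-sided with limma 3.58.1 in R 4.3.3, with Benjamini-Hochberg adjustment over 34303 probes, and tested on simulated data. A gene is its brightest tested probe. Names came from RefSeq accessions in RefSeq's GRCm38.p6 annotation, for 32994 of 56605 probes. Figures used matplotlib 3.10.9.

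Given on every array are members at an unadjusted p under 0.05 or with no overlap, the largest difference in each role group, a fixed set of main members, and some chosen after their values were seen (Itga2b, Cldn9). Members and lists were chosen with earlier results of these data known, and some list genes are not reported here by name.

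Replicate numbers, which are also slide columns, were checked as a pairing. Between equally numbered arrays the deviations from the group means had r of 0.164 to 0.337, over 0.1 in 4 of 4 pairs, and otherwise r of -0.34 to 0.118. The numbers therefore pair the arrays, and what they share is not given in the sources used here.

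Alternatives were quantile normalization, normexp correction (offset 50), the percentile taken over detected probes, no or a stricter dim filter, the methods' t-test, the replicate block, trend with robust eBayes, the authors' processed values, the mean of a gene's probes, and each array left out.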

Additional observations from a re-analysis of the deposited data

Results flagged for a closer look

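Of 146 groups of 4 values checked, 14 held an array that stood apart from its group, where 7.3 are expected by chance since about 1 in 20 groups is marked in this way.

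HZ replicate 4 held 6 of the 12 such values among the genes and was also the array with 458 non-uniform spots, against 2 to 22 on the other HZ arrays. On it Cldn4 was at -5.20, Cldn8 at -7.26, Cldn34c4 at -7.22, Cldn34d at -6.84, Itga8 at -7.42 and Itga2 at -4.39, each above the other HZ arrays. Itga2 was well above background there and the other 5 were not, and none of the 6 genes was tested between the labels. Whether the array's spots bear on these values was not tested.

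Among tested members, Cldn12 on KO replicate 3 was 2.00, where the other KO arrays lay between 2.39 and 2.46. Itga4 on KO replicate 1 was -2.82, where the others lay between -2.58 and -2.56. Itgae on KO replicate 4 was -5.90, below the others at -5.57 to -5.53, and was not well above background on any of them. Cldn34a on KO replicate 3 (-6.66), Cldn34b4 on KO replicate 2 (-7.77) and Itgb6 on KO replicate 1 (-7.80) were not well above background. The red blood cell score of HZ replicate 1 was 0.26, where the other HZ arrays lay between -1.23 and -1.04.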

How the results depend on the processing

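Of the 27 tested members, 14 kept their direction in every alternative in which they could be fitted, among them Itga7 and Itgav. Itgae is also among them, but its sign was favoured by a filter that it passed through the HZ arrays alone. With the looser thresholds, the 1 lower member became 0 with normexp background correction and without a filter on dim probes. It became 2 with the percentile taken over detected probes. The count was also 0 with the filter at all 8 arrays, but Itga7, well above background on 3 KO arrays, was not tested there. The 0 higher members became 1 with normexp and 2 with the replicate block. With each array left out, 0 to 4 were lower and 0 to 3 higher, and 4 and 3 came without HZ replicate 2 (Itga7, Itgae, Itgam and Cldn20 lower, and Cldn5, Itga11 and Itgax higher), where 3.31% and 1.41% of genes were called. The 3 of 27 members at an unadjusted p under 0.05 became 5 with quantile normalization (Cldn5 and Itgax added), where 8.74% of genes passed. They became 4 with normexp, where 11.6% of genes passed, and 2 with trend and robust eBayes (Itgae lost in both). The number tested changed with the filter, with 6 of 57 members passing without a filter on dim probes and 1 of 18 with the filter at all arrays. There were 6 with the replicate block, where 12.5% of genes passed. With an array left out there were 3 to 5, with 5 without HZ replicate 2, 3 or 4. Without HZ replicate 2, 13.5% of genes passed. The block changed no other call. With the stricter thresholds the count was 0 in every alternative. Over the alternatives the median lay between -0.11 and 0.0066 for the integrins and between -0.23 and 0.0082 for the claudins, within the spread of the array medians around the main values.

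Signs turned for 13 members, most of them near 0, but also for Cldn9 (-0.39 in the analysis as reported) and Cldn10 (-0.33). With quantile normalization Cldn12 was -0.028, Cldn14 0.010, Cldn18 0.090 and Itga1 0.043. With normexp Cldn9 was 0.044, Cldn14 0.10, Cldn15 0.031, Itga4 -0.033, Itga10 -0.14 and Itgb1 0.027. With the percentile over detected probes, those well above background everywhere, Cldn12 was -0.021 and Itga4 -0.0015, and as the mean of its probes Itgb1 was 0.049. With single arrays left out the ranges were -0.71 to 0.072 for Cldn10, -0.038 to 0.12 for Cldn12, -0.33 to 0.029 for Cldn14, -0.28 to 0.14 for Cldn15, -0.17 to 0.0042 for Cldn18, -0.13 to 0.011 for Cldn7, -0.54 to 0.42 for Itga1, -0.064 to 0.27 for Itga10, -0.10 to 0.27 for Itga4, -0.031 to 0.13 for Itga6, -0.11 to 0.017 for Itgb1 and -0.33 to 0.13 for Itgb4. The cause of these shifts was not tested, and low signal over background limits the sizes of the dim members.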

Other observations

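Of the members too dim to be tested, 2 were high on KO replicate 1 alone. Cldn34c4 was at -0.80 there and between -7.87 and -6.16 on the other KO arrays, and Cldn16, a claudin of kidney tubules, was at -1.77 there and between -7.26 and -6.20 on the others. Both were well above background on that array and on 0 HZ arrays.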
